A study of Homo sapiens with 24 samples.

Results

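Notch pathway genes were examined in PANC1 cells, a human line derived from an adenocarcinoma of the pancreatic duct. The 10 genes were chosen by name for their place in the pathway, and they make up 10 of the 54583 genes in the count table. They are the receptors *NOTCH1*, *NOTCH2* and *NOTCH3*, the ligands *JAG1* and *JAG2*, the sheddase *ADAM10*, the nuclear mediators *RBPJ* and *MAML1*, and the targets *HES1* and *HEY1*. All cells were kept in complete growth medium with serum and received for 6 h either DMSO, the solvent, or CID661578 at 40 µM or cercosporamide at 5 µM, compounds which the series groups together as MNK2 inhibitors. The kinase MNK2 phosphorylates the cap-binding translation factor eIF4E. The paper reports that CID661578 left the kinase activity of MNK2 unchanged in vitro, whereas cercosporamide inhibited it. In this line, by the paper's account, CID661578 reduced the binding of MNK2 to the scaffold protein eIF4G. Phosphorylated eIF4E rose there with both compounds, each at 40 µM. There were 4 biological replicates of each treatment, and each of the 12 plates gave a library of total cytosolic RNA and a library of polysome-associated RNA, meaning mRNA carrying more than 3 ribosomes. The comparisons ask how much of each mRNA was present, how much of it was on polysomes, and how the second quantity moved against the first, which is called translational efficiency (TE). The cells are a single carcinoma line, so the data hold no normal duct cells and no second line.

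Notch signalling passes between touching cells. A ligand of the Jagged or Delta-like family on a cell binds a Notch receptor on its neighbour, ADAM10 cuts the receptor outside the membrane, γ-secretase cuts it within the membrane, and the freed intracellular domain enters the nucleus. There it joins the DNA-binding protein RBPJ and a Mastermind coactivator such as MAML1 and turns on repressors of the HES and HEY families. In the developing pancreas this pathway is known for holding progenitor cells back from endocrine differentiation, and in adult zebrafish it is known for keeping duct-resident progenitor cells undifferentiated.

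Of the 24 libraries, 23 held between 9268041 and 12184749 reads on genes and the remaining one, from cercosporamide polysomes of replicate 4, held 1592459. Levels are given as CPM, the count scaled to a common library size. A gene entered the tests only if it had at least 1 read in every library, which kept 12058 genes and 8 of the 10 Notch pathway genes. *NOTCH3*, with 0 to 23 reads per library, and *HEY1*, with 0 to 35, did not pass, and *HEY1* missed only through the shallow cercosporamide library. The summed level of 6 duct and epithelial markers was between 5420 and 22500 CPM, nearly all of it from *KRT19*, *KRT8* and *KRT18* (at least 6149 reads each per library). The other 3, *KRT7* (5 to 298 reads), *EPCAM* (12 to 126) and *SOX9* (22 to 558), were low, and the mesenchymal marker *VIM* was abundant at 770 to 2180 CPM. Of 10 markers of acinar, endocrine, leukocyte, endothelial and liver cells, 6 had no read in any library and the highest count of the others was 14. In bulk RNA, fewer cells that express a gene and less RNA in each cell cannot be told apart.

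With DMSO, *NOTCH2* was the most abundant of the 3 receptors in the set, and *NOTCH3* was barely detected. The near copies of *NOTCH2*, described with the polysome values, make its level uncertain. Corrected for transcript length, the mean level in total RNA was 4.71 CPM per kilobase for *NOTCH2*, 4.10 for *HES1*, 3.39 for *RBPJ*, 2.96 for *ADAM10*, 2.02 for *JAG1* and 1.22 for *MAML1*. It was 0.634 CPM per kilobase for *HEY1*, 0.51 for *JAG2*, 0.229 for *NOTCH1* and 0.0165 for *NOTCH3*. Neighbours in this order had overlapping ranges over the 4 libraries at 7 of the 9 steps. The steps without overlap were those from *JAG1* (1.43 to 3.07 CPM per kilobase) to *MAML1* (1.08 to 1.37) and from *NOTCH1* (0.157 to 0.372) to *NOTCH3* (0.0 to 0.0359). *JAG1* stood above *JAG2* (0.337 to 0.796 CPM per kilobase) in every DMSO library of total RNA. Outside this set, the ligand *DLL3* reached 10133 reads in a library, where *JAG1* reached at most 508. The receptor *NOTCH4* reached 868 reads, beside at most 1709 for *NOTCH2* and 241 for *NOTCH1*. These highest counts are over all libraries and are not corrected for transcript length. The order above therefore ranks only the chosen genes, not all Notch ligands and receptors in these cells.

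**Figure D1:**
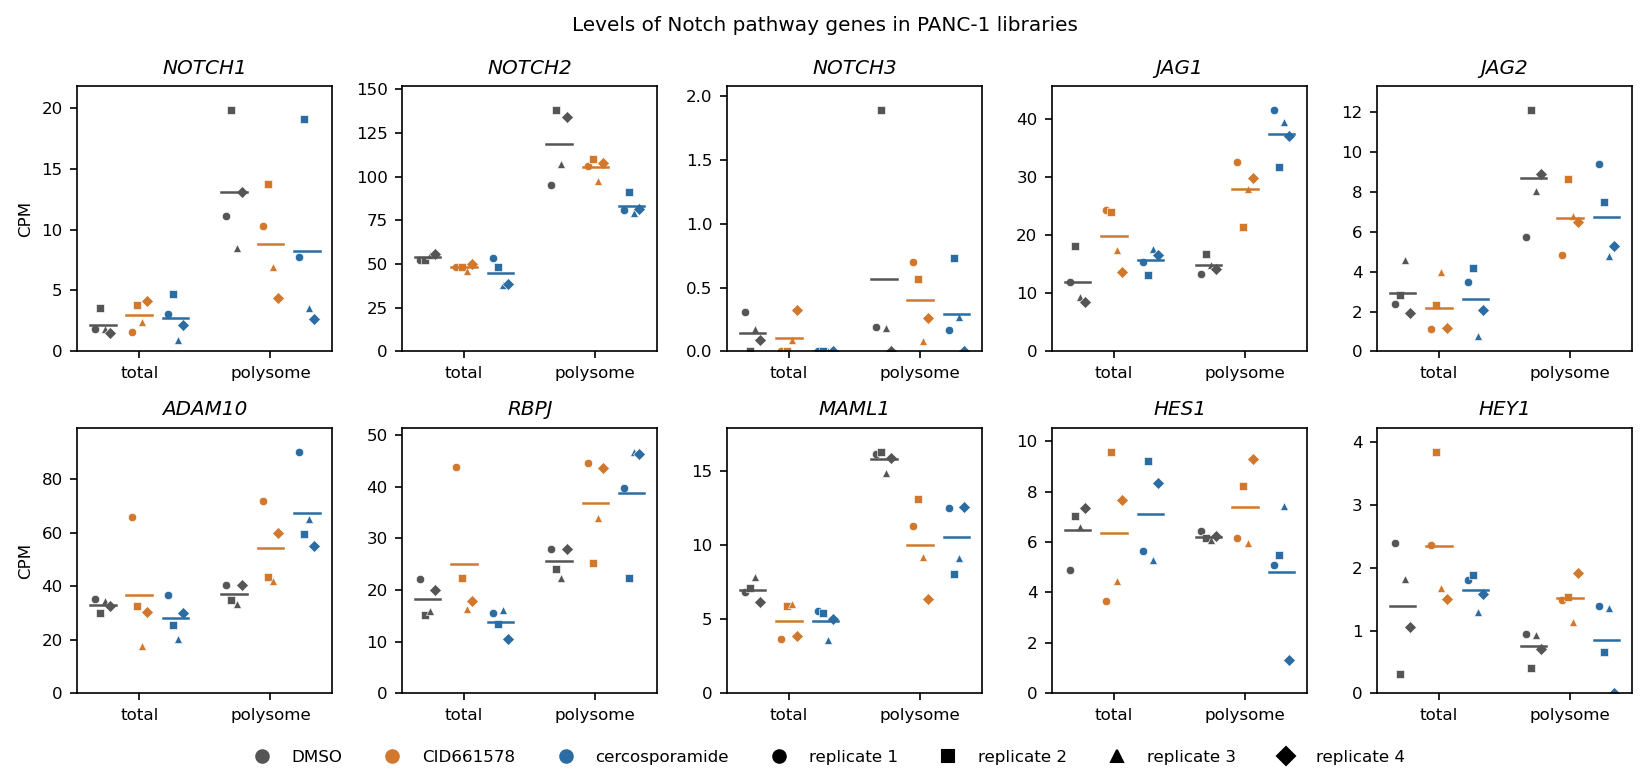
Level of each Notch pathway gene in CPM (vertical axis, linear, starting at 0 and different for each gene) in the 24 libraries, with colours for treatment, symbols for replicate and a bar for the mean of 4 replicates. *JAG1* and *ADAM10* lie above the DMSO points in polysome-associated RNA with both compounds, and *MAML1* lies below them in both fractions.

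On polysomes of DMSO-treated cells, *NOTCH1*, *NOTCH2*, *JAG2*, *RBPJ* and *MAML1* were enriched over total RNA, while *HES1* and *ADAM10* were near the middle of all genes. *NOTCH1* read 1.87, 3.56, 1.82 and 1.5 CPM in total RNA of replicates 1 to 4 and 11.1, 19.8, 8.49 and 13.1 CPM in polysome-associated RNA. Every polysome value was above every total value, as for 13.7% of all tested genes, and the difference was 2.63 on the log2 scale (SE 0.283, adjusted p = 8.95e-10 by the quasi-likelihood test of edgeR with Benjamini-Hochberg adjustment, as for every adjusted p below). *JAG2* rose from a mean of 2.94 ± 1.16 CPM (SD, n = 4) to 8.68 ± 2.61 CPM, again without overlap, a log2 difference of 1.62 (SE 0.301, adjusted p = 2.85e-05). *MAML1* and *NOTCH2* were higher on polysomes by 1.22 (SE 0.237, adjusted p = 5.12e-05) and 1.17 (SE 0.177, adjusted p = 1.01e-06) on the log2 scale. *RBPJ* was higher by 0.54 (SE 0.204, adjusted p = 0.028), and its ranges of 15.2 to 22.2 CPM in total RNA and 22.3 to 28.0 CPM on polysomes only just failed to meet.

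*JAG1* passed at a log2 difference of 0.41 (SE 0.23, adjusted p = 0.146), with overlapping ranges and with the call lost in 9 of 11 alternative analyses, over which the adjusted p ran from 0.0802 to 0.374. Leaving out replicate 1, 3 or 4 each ended it (adjusted p = 0.161, 0.334 and 0.374). The short mRNA of the repressor *HES1* showed a log2 difference of 0.00 (SE 0.325, adjusted p = 1). The sheddase *ADAM10*, with a long mRNA, showed one of 0.22 (SE 0.189, adjusted p = 0.359). In all, 6 of the 8 tested genes were higher on polysomes and 0 were lower, against 29.8% higher and 29% lower among all tested genes (58.7% in all). The median log2 difference was 0.85 for the Notch pathway genes and 0.03 for all tested genes.

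Genes with longer coding sequences tended to be more enriched on polysomes, with exceptions. *JAG1* (3654 bases) was at 0.41, below *RBPJ* (1461 bases) at 0.54. *JAG2* (3714 bases) was at 1.62, above *NOTCH2* (7413 bases) at 1.17. *NOTCH1* has a coding sequence of 7665 bases and *HES1* one of 840 bases. Across the 8 genes, the log2 coding length and the log2 polysome difference had a Pearson r of 0.77 and a Spearman rho of 0.79, and across 10149 tested genes these were 0.64 and 0.61. The genes share the same 8 libraries, and the fraction collected was defined by the number of ribosomes on an mRNA. The part of coding length in the enrichment of these genes was not tested.

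**Figure D2:**
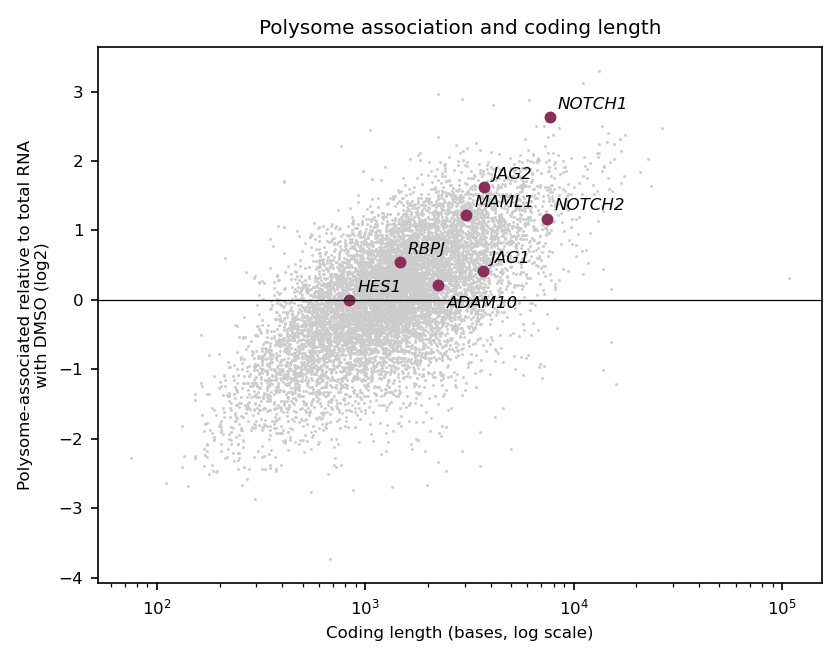
Log2 ratio of polysome-associated to total RNA with DMSO (vertical axis) against coding length in bases (horizontal axis, log scale), with tested genes in grey and the 8 tested Notch pathway genes in purple. *NOTCH1* is the highest of the 8 at 2.63, and *HES1*, the shortest, lies at 0.00.

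In total RNA, no Notch pathway gene passed the test with either compound. CID661578 called 0 of 8, against 0.473% of all tested genes, and 1 gene, *JAG1*, had an unadjusted p below 0.05 (7.2% of all). Cercosporamide called 0 of 8, against 0.0829% of all tested genes, and 0 had an unadjusted p below 0.05 (11.2% of all). DESeq2 also called 0, of 8 genes with CID661578 and of the 6 to which it gave an adjusted p with cercosporamide. Median log2 changes were −0.06 with CID661578 and −0.22 with cercosporamide, beside −0.03 and −0.05 for all tested genes.

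Among the members with the clearest separation in total RNA was *MAML1*, the coactivator of the nuclear complex. It read 6.85, 7.12, 7.89 and 6.18 CPM with DMSO, 3.67, 5.93, 6.05 and 3.88 CPM with CID661578, and 5.54, 5.44, 3.60 and 5.05 CPM with cercosporamide. All 8 values with a compound were below all 4 with DMSO, yet the log2 changes of −0.55 (SE 0.313, adjusted p = 0.769) and −0.55 (SE 0.315, adjusted p = 0.535) did not pass. CPM ranges that lay wholly below those of DMSO were found for 1.29% of all tested genes in total RNA with CID661578 and for 2.07% with cercosporamide. *NOTCH2* was also without overlap with CID661578, at 46.1 to 50 CPM against 52.0 to 55.6 CPM (log2 change −0.17, SE 0.196, adjusted p = 0.938). *JAG1* read 12.0, 18.2, 9.28 and 8.48 CPM with DMSO and 24.3, 23.9, 17.4 and 13.6 CPM with CID661578. It was above the DMSO library of the same number in 4 of 4 replicates, but the ranges overlapped and the log2 change of 0.72 (SE 0.275, adjusted p = 0.583) did not pass. It passed in 1 of 13 alternatives, in which the trend with GC content was removed (adjusted p = 0.139), and over all of them the adjusted p ran from 0.139 to 1.

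In the total library of replicate 1 with CID661578, the AU-rich mRNAs of *ADAM10* and *RBPJ* stood high. *ADAM10* read 65.9 CPM there and 17.8 to 32.7 CPM in the other replicates, and *RBPJ* read 43.9 CPM there and 16.4 to 22.3 CPM in the others. With DMSO the ranges were 30 to 35.2 CPM for *ADAM10* and 15.2 to 22.2 CPM for *RBPJ*. The fitted log2 change of *ADAM10* in total RNA was 0.00 (SE 0.254, adjusted p = 0.998) and ran from −0.32 to 0.35 when a replicate was left out.

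In polysome-associated RNA, calls were made with both compounds. With CID661578 the ligand *JAG1* and the sheddase *ADAM10* were higher on polysomes and *MAML1* was lower. With cercosporamide the same 3 calls were made, *RBPJ* was also higher, and the receptors *NOTCH1* and *NOTCH2* were lower. These were 3 of 8 genes with CID661578, against 10.3% of all tested genes (6.34% higher and 3.93% lower), and 6 of 8 with cercosporamide, against 33.1% (17.1% higher and 16% lower). The DMSO libraries served for both compounds and the doses differed, so the values stand side by side and the compounds were not compared with each other.

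*JAG1* had the largest change among the 8 tested genes on polysomes with each compound. It read 13.4, 16.8, 14.9 and 14.2 CPM with DMSO, 32.6, 21.4, 28.0 and 29.8 CPM with CID661578, and 41.5, 31.7, 39.4 and 37.1 CPM with cercosporamide. The lowest value with either compound exceeded the highest with DMSO, and the shallow library (37.1 CPM from 56 reads) lay among the others. The log2 change was 0.90 (SE 0.191, adjusted p = 0.00996) with CID661578 and 1.29 (SE 0.194, adjusted p = 0.000116) with cercosporamide. Both calls were made in 14 of 14 alternatives, with adjusted p from 0.000447 to 0.139 and from 3.23e-09 to 0.00415. Among all tested genes, the CPM range lay wholly above that of DMSO for 3.83% with CID661578 and 8.43% with cercosporamide.

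*ADAM10*, which makes the extracellular cut in a ligand-bound receptor, read 40.4, 34.8, 33.3 and 40.5 CPM on polysomes with DMSO. It read 71.7, 43.4, 41.8 and 59.7 CPM with CID661578 and 90.0, 59.5, 65.2 and 54.9 CPM with cercosporamide, without overlap with DMSO in either case. The log2 change was 0.51 (SE 0.176, adjusted p = 0.11) with CID661578 and 0.82 (SE 0.179, adjusted p = 0.00311) with cercosporamide. The CID661578 call was kept in 6 of 14 alternatives (adjusted p from 0.0645 to 0.827) and ended on leaving out replicate 1, 2, 3 or 4 (adjusted p = 0.397, 0.16, 0.238 and 0.246). The cercosporamide call was kept in 13 of 14 (adjusted p from 6.49e-05 to 0.252).

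*RBPJ*, through which the Notch receptors act on DNA, read 28.0, 24.1, 22.3 and 27.9 CPM on polysomes with DMSO. It read 44.5, 25.2, 33.9 and 43.7 CPM with CID661578 and 39.8, 22.4, 46.7 and 46.3 CPM with cercosporamide. Replicate 2 lay within the DMSO range with both compounds, and the other replicates lay above it. The log2 change was 0.49 (SE 0.194, adjusted p = 0.17) with CID661578, which did not pass, and 0.51 (SE 0.198, adjusted p = 0.0743) with cercosporamide. Without replicate 2 the CID661578 change passed (0.64, adjusted p = 0.125), and the adjusted p over the 14 alternatives ran from 0.101 to 0.868. The cercosporamide call was kept in 7 of 14 (adjusted p from 0.04 to 0.962) and ended on leaving out replicate 1, 3 or 4 (adjusted p = 0.192, 0.374 and 0.158). With the GC trend removed it turned to −0.02 (adjusted p = 0.962).

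*MAML1* fell on polysomes with both compounds. It read 16.2, 16.3, 14.9 and 15.9 CPM with DMSO, 11.3, 13.1, 9.19 and 6.38 CPM with CID661578, and 12.5, 8.08, 9.15 and 12.6 CPM with cercosporamide, again without overlap. Ranges wholly below DMSO were found on polysomes for 2.92% of all tested genes with CID661578 and 5.73% with cercosporamide. The log2 change was −0.68 with both compounds (SE 0.232, adjusted p = 0.108 with CID661578, and SE 0.243, adjusted p = 0.0524 with cercosporamide). With CID661578 the call was kept in 7 of 14 alternatives (adjusted p from 0.048 to 0.405) and ended on leaving out replicate 1, 3 or 4 (adjusted p = 0.227, 0.284 and 0.405). With cercosporamide it was kept in 10 of 14 (adjusted p from 0.0326 to 0.207) and ended on leaving out replicate 2 or 3 (adjusted p = 0.207 and 0.157).

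The receptor *NOTCH2* fell on polysomes with cercosporamide, reading 81.0, 91.2, 79.3 and 81.4 CPM against 94.9, 138, 107 and 134 CPM with DMSO. The groups did not overlap, and the log2 change was −0.53 (SE 0.165, adjusted p = 0.0279), kept in 12 of 14 alternatives with adjusted p from 0.0121 to 0.159. With CID661578 the log2 change was −0.16 (SE 0.163, adjusted p = 0.64) and the ranges overlapped. The near copies *NOTCH2NLA*, *NOTCH2NLB*, *NOTCH2NLC* and *NOTCH2NLR* share sequence with the start of *NOTCH2*, and reads with several alignments were counted at each of them. Their summed counts were 91.2% to 174% of those of *NOTCH2* in polysome libraries and 190% to 796% in total libraries, so *NOTCH2* values are uncertain.

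*NOTCH1* read 11.1, 19.8, 8.49 and 13.1 CPM on polysomes with DMSO, 10.3, 13.7, 6.93 and 4.37 CPM with CID661578, and 7.77, 19.1, 3.53 and 2.65 CPM with cercosporamide. Replicate 2 was the highest in each group, every treated library was below the DMSO library of the same number, and the ranges overlapped. The log2 change was −0.86 (SE 0.297, adjusted p = 0.0469) with cercosporamide and −0.62 (SE 0.279, adjusted p = 0.225) with CID661578. The value of 2.65 CPM came from 4 reads in the shallow library, and without replicate 3 or 4 the cercosporamide call was lost (adjusted p = 0.179 and 0.195). It was kept in 10 of 14 alternatives, with adjusted p from 0.0267 to 0.499. The ligand *JAG2* read 5.76 to 12.1 CPM with DMSO, 4.82 to 8.64 CPM with CID661578 and 4.80 to 9.41 CPM with cercosporamide, with overlap and no call. Without replicate 1, however, it passed with cercosporamide (log2 change −0.80, adjusted p = 0.0821), and over the 14 alternatives the adjusted p ran from 0.0821 to 0.903.

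With the trend with GC content removed, *JAG1* kept its polysome call with both compounds and the other polysome calls were lost. With CID661578 the log2 changes then were 0.12 for *ADAM10* (adjusted p = 0.827) and −0.50 for *MAML1* (adjusted p = 0.369). With cercosporamide they were 0.31 for *ADAM10* (adjusted p = 0.252), −0.35 for *NOTCH2* (adjusted p = 0.154), −0.44 for *MAML1* (adjusted p = 0.207) and −0.60 for *NOTCH1* (adjusted p = 0.156). Without the replicate block, the calls of *ADAM10* and *MAML1* with CID661578 (adjusted p = 0.451 and 0.403) and of *NOTCH1* and *RBPJ* with cercosporamide (adjusted p = 0.499 and 0.214) were lost.

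**Figure D3:**
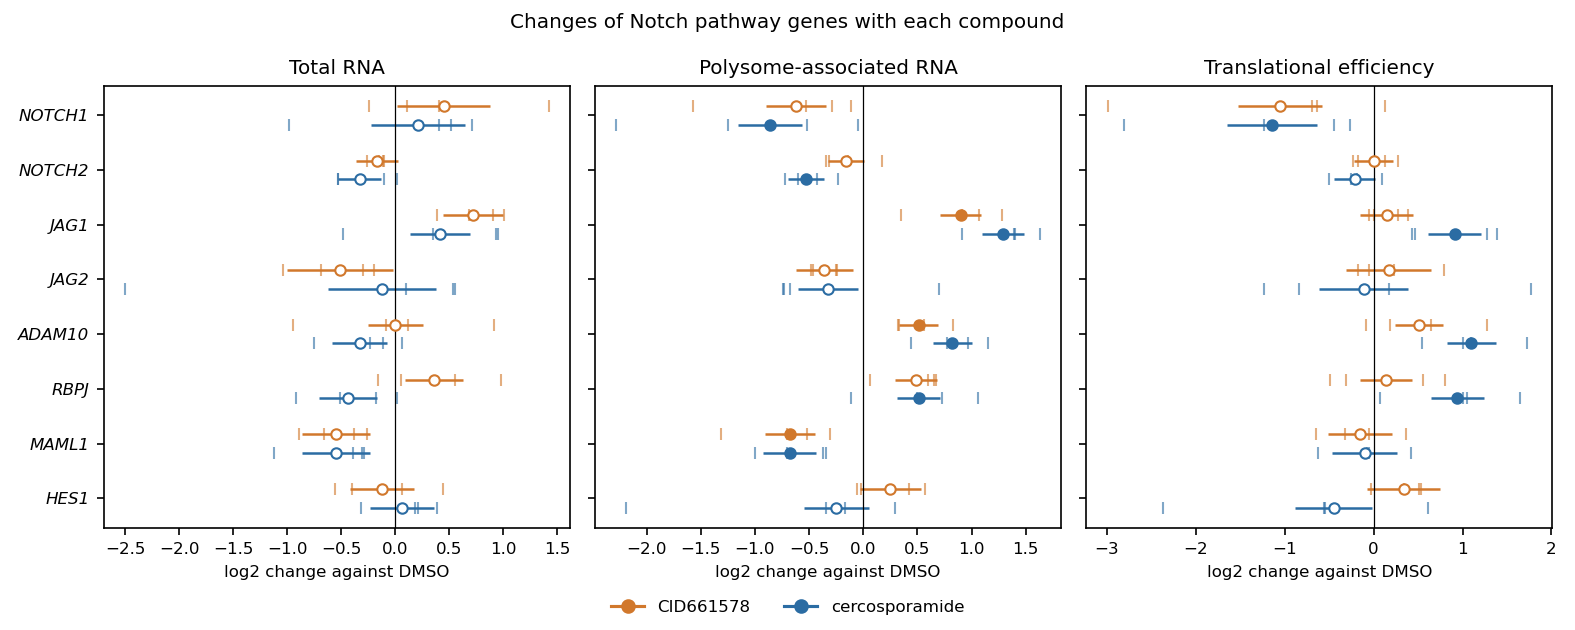
Log2 change against DMSO of the 8 tested Notch pathway genes in total RNA, in polysome-associated RNA and in translational efficiency (horizontal axes). Circles give the fitted change, filled where it was called, bars give the standard error and short ticks give the 4 replicates. In total RNA no circle is filled, and on polysomes *JAG1* has the highest change with both compounds (0.90 and 1.29).

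Translational efficiency sets the polysome change against the change in total RNA of the same plates. For it, 4 of the 8 genes were called with cercosporamide and 0 with CID661578. With cercosporamide, *ADAM10*, *RBPJ* and *JAG1* rose and *NOTCH1* fell, against 15.8% of all tested genes that rose and 12.6% that fell (28.4% in all). With CID661578 0 of 8 passed, against 0.207% of all tested genes (25 of 12058), and 1, *NOTCH1*, had an unadjusted p below 0.05 (8.87% of all). The paper, by another method, reported more mRNAs than this with changed translation under both compounds. The 0 calls therefore do not show that TE stayed the same, and the compounds were not compared with each other. With CID661578, an analysis of partial variance also called 0 of 8, and DESeq2 called 0 of the 5 to which it gave an adjusted p. The median log2 TE change was −0.10 with cercosporamide and 0.15 with CID661578, beside 0.00 and 0.03 for all tested genes.

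*ADAM10* had the largest rise in TE of the 8 genes, with log2 changes of 1.09, 1.01, 1.72 and 0.55 in replicates 1 to 4 with cercosporamide. The fitted change was 1.1 (SE 0.273, adjusted p = 0.00788), kept in 15 of 17 alternatives with adjusted p from 0.00405 to 0.324. *RBPJ* changed by 1.01, 0.07, 1.05 and 1.65, so replicate 2 hardly moved and the others rose. Its fitted change was 0.94 (SE 0.299, adjusted p = 0.0323), kept in 13 of 17 alternatives with adjusted p from 0.03 to 0.696 and lost without replicate 4 (adjusted p = 0.213). *JAG1* changed by 1.28, 1.39, 0.47 and 0.43, higher in 4 of 4 replicates, and its fitted change was 0.91 (SE 0.301, adjusted p = 0.0414). Without replicate 1 or 2 the *JAG1* call was lost (adjusted p = 0.199 and 0.237), and it was kept in 15 of 17 alternatives, with adjusted p from 0.0111 to 0.237.

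*NOTCH1* changed in TE by −1.23, −0.45, −0.27 and −2.81 with cercosporamide, lower in 4 of 4 replicates and furthest in the replicate with the shallow library. The fitted change was −1.14 (SE 0.502, adjusted p = 0.124). It was kept in 9 of 17 alternatives, with adjusted p from 0.0761 to 0.537, and ended on leaving out replicate 1, 2 or 4 (adjusted p = 0.268, 0.193 and 0.37) and without the shallow library (adjusted p = 0.213). With CID661578 it changed by 0.13, −0.64, −0.69 and −2.99, and the fitted change of −1.05 (SE 0.472, adjusted p = 0.531) did not pass.

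The other TE changes with CID661578 were 0.51 (SE 0.27) for *ADAM10*, 0.34 (SE 0.41) for *HES1*, 0.17 (SE 0.48) for *JAG2*, 0.15 (SE 0.298) for *JAG1*, 0.14 (SE 0.294) for *RBPJ*, 0.00 (SE 0.222) for *NOTCH2* and −0.15 (SE 0.361) for *MAML1* on the log2 scale. *JAG1* thus passed on polysomes with CID661578 without a call in TE, its total and polysome log2 changes being 0.72 and 0.90. With cercosporamide, those of *MAML1* were −0.55 and −0.68, and its TE change was −0.10 (SE 0.369, adjusted p = 0.889). *NOTCH2* (−0.21, SE 0.229, adjusted p = 0.57) and *JAG2* (−0.11, SE 0.502, adjusted p = 0.908) did not pass in TE either. The 4 near copies of *NOTCH2* did pass with cercosporamide, with log2 TE changes between −0.97 and −1.18 and adjusted p between 0.00464 and 0.0347.

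The GC content of the transcripts moved with these TE changes. *ADAM10* and *RBPJ* have the lowest GC content of the 8 transcripts, at 37.5% and 37.2%, *JAG1* has 49.6% and *NOTCH1* has 63.5%. The genes not called varied too. *JAG2* has the highest GC content, 64.1%, yet its TE changed by only −0.11 with cercosporamide. *NOTCH2* (49.4%), *HES1* (50%) and *MAML1* (55.5%) changed by −0.21, −0.45 and −0.10. Between GC content and the TE change with cercosporamide, Pearson r was −0.79 and Spearman rho was −0.64 across the 8 genes, and −0.51 and −0.53 across 11659 tested genes with a known GC content. With CID661578 they were −0.62 and −0.26 across the 8 genes and −0.54 and −0.56 across all. These correlations are across genes measured in the same 24 libraries. With the GC trend removed, *JAG1* kept its call with cercosporamide, at 1.05 (adjusted p = 0.0111). The other changes were 0.38 for *ADAM10* (adjusted p = 0.324), 0.21 for *RBPJ* (adjusted p = 0.696) and −0.67 for *NOTCH1* (adjusted p = 0.378), none of them called. The cause of the trend was not tested.

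**Figure D4:**
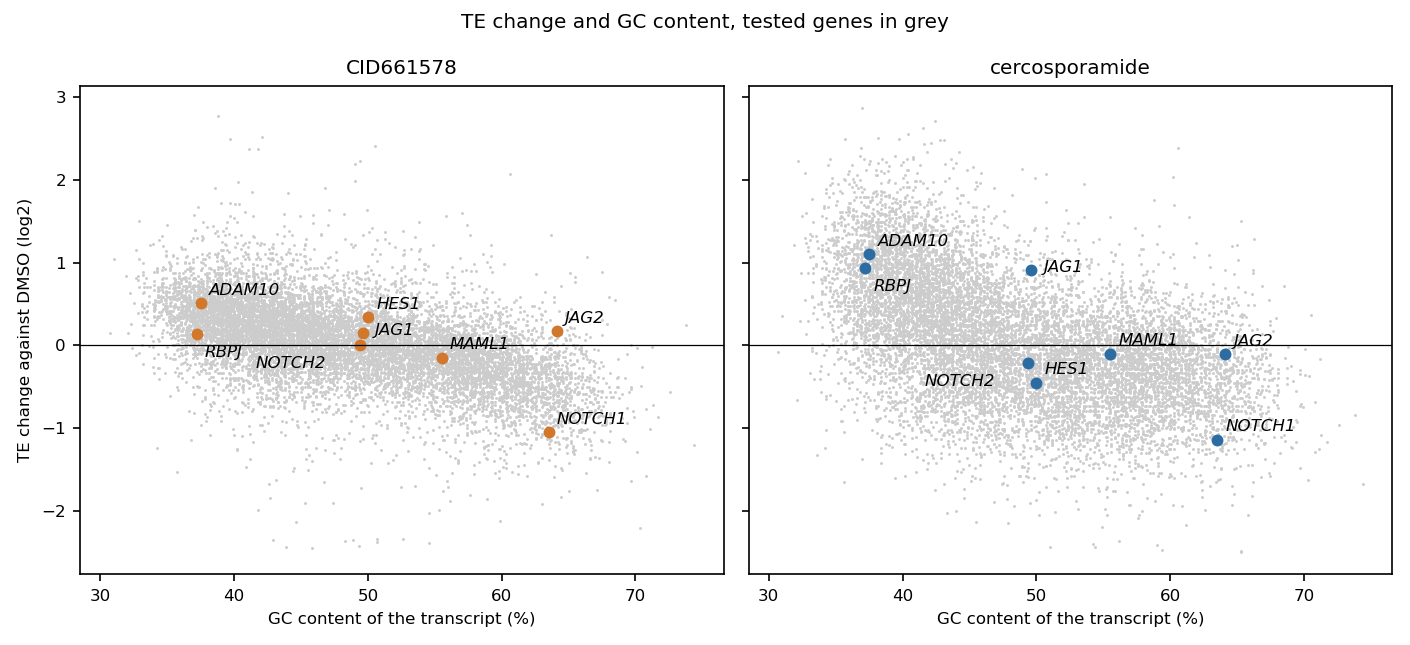
Log2 TE change against DMSO (vertical axis) with CID661578 (left) and cercosporamide (right) against the GC content of the transcript in percent (horizontal axis), with tested genes in grey and the 8 tested Notch pathway genes in colour. *ADAM10* and *RBPJ* lie with the AU-rich genes at the upper left, *NOTCH1* lies low at 63.5%, and *JAG1* lies high for its GC content with cercosporamide.

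*HES1* is a direct target of the RBPJ complex, and its promoter is a standard example of RBPJ binding. The stretch from 90 to 61 bases before its start site (chr3:194136058-194136087, plus strand, GRCh38.p14, from the RefSeq promoter table) is shown because it carries 2 matches to TGGGAA, the core of the RBPJ motif, here in capitals.
HES1: ttactgTGGGAAagaaagttTGGGAAgttt
The letters TGGGAA were searched on both strands of windows from 250 bases before to 50 bases after the start site. Of 35116 such promoter windows, 24.0% held at least 1 match and 3.8% held 2 or more. Of the Notch pathway genes, 9 had a window in the table, and 2 of them, *HES1* and *RBPJ*, held a match. *RBPJ* has 5 windows, of which 1 held 2 matches. A match of these letters is no measure of binding.

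The level of *HES1* did not pass the test in any comparison with a compound. It read 4.88, 7.02, 6.59 and 7.33 CPM in total RNA with DMSO, 3.67, 9.56, 4.47 and 7.66 CPM with CID661578, and 5.66, 9.20, 5.27 and 8.32 CPM with cercosporamide. Replicates 2 and 4 were the higher libraries in all 3 groups, and the groups overlapped. The log2 change in total RNA was −0.12 (SE 0.296, adjusted p = 0.974) with CID661578 and 0.06 (SE 0.297, adjusted p = 0.964) with cercosporamide. On polysomes it was 0.25 (SE 0.282, adjusted p = 0.667) and −0.25 (SE 0.299, adjusted p = 0.602). The lowest polysome value, 1.32 CPM, came from 2 reads in the shallow library, and the other polysome libraries lay between 5.07 and 9.27 CPM.

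The genes whose pattern was most like that of *HES1* across the 24 libraries, out of 7903 genes with enough reads, were *FKBP1AP1* (Pearson r of log2 CPM 0.88, each fraction centred on its mean), *SNORD140* (0.87) and *FAM168A* (0.85). Without the shallow library the same values were 0.75, 0.62 and 0.55 over 23 libraries, and *HES1*, *FKBP1AP1* and *FAM168A* each had 2 reads in it and *SNORD140* had 4.

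*HEY1*, the other target, was at the edge of detection, and its polysome levels with CID661578 lay above those with DMSO. It read 0.944, 0.410, 0.933 and 0.708 CPM (5 to 10 reads) with DMSO and 1.49, 1.53, 1.13 and 1.92 CPM (14 to 22 reads) with CID661578, without overlap. With cercosporamide it read 1.39, 0.653 and 1.36 CPM and had 0 reads in the shallow library, where a count of 0 allows up to 3 reads. When that library was left out, which let *HEY1* enter a test of 13202 genes, the log2 polysome change with CID661578 was 1.06 (SE 0.421, adjusted p = 0.157), which did not pass. Over the other alternatives that held *HEY1* it was between 0.92 and 1.11, with adjusted p from 0.252 to 0.465. In total RNA it read 0.305 to 2.39 CPM with DMSO, 1.51 to 3.84 CPM with CID661578 and 1.29 to 1.88 CPM with cercosporamide, all overlapping.

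*NOTCH3* had 0 to 3 reads in every library of total RNA, and no read in the 4 total libraries with cercosporamide. On polysomes it read 0.189, 1.89, 0.187 and 0.0 CPM with DMSO, 0.701, 0.565, 0.0806 and 0.262 CPM with CID661578, and 0.164, 0.734, 0.272 and 0.0 CPM with cercosporamide. A change in *NOTCH3* was not detectable at this depth.

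Beyond these 10, a list of 61 other Notch pathway genes held 41 that were tested. Of the 20 that were not, 8 stayed under 10 reads in every library and 2 had no read at all. With CID661578, edgeR called 0 of 41 for TE, against 0.207% of all tested genes, and 3 had an unadjusted p below 0.05 (8.87% of all). In total RNA it called 0 of 41 with either compound, against 0.473% of all tested genes with CID661578 and 0.0829% with cercosporamide. There, 0 with CID661578 and 5 with cercosporamide had an unadjusted p below 0.05 (7.2% and 11.2% of all). With cercosporamide, 6 of 41 rose and 5 fell in TE, beside 15.8% and 12.6% of all tested genes. The largest rises were those of *SNW1*, a nuclear cofactor of the RBPJ complex (log2 1.46, SE 0.249, adjusted p = 0.000511), the RBPJ corepressor *CIR1* (1.42, SE 0.409, adjusted p = 0.0196) and the histone deacetylase *HDAC2* (1.31, SE 0.241, adjusted p = 0.000874). The largest falls were those of *HES6*, a HES family member that opposes HES1 (−1.65, SE 0.743, adjusted p = 0.134), *RITA1*, which carries RBPJ out of the nucleus (−1.28, SE 0.373, adjusted p = 0.0211), and the Groucho-related *TLE5* (−1.22, SE 0.455, adjusted p = 0.0688). The *HES6* call was kept in 9 of 16 alternatives (adjusted p from 0.0258 to 0.806), and without replicate 2 its change was −0.42 (adjusted p = 0.806). *TLE5* was kept in 12 of 17 (adjusted p from 0.00829 to 0.438) and was −0.77 without replicate 2 (adjusted p = 0.438) and −0.89 without replicate 4 (adjusted p = 0.219). *RITA1* and *CIR1*, each kept in 14 of 17, also lost their calls without replicate 2 (adjusted p = 0.172 and 0.173). With the GC trend removed, *CIR1* (0.76, adjusted p = 0.195) and *HES6* (−1.29, adjusted p = 0.247) lost their calls. *SNW1* (1.28, adjusted p = 0.000122), *HDAC2* (0.60, adjusted p = 0.0687), *RITA1* (−0.93, adjusted p = 0.0342) and *TLE5* (−0.85, adjusted p = 0.122) then kept theirs. By role, 3 of 13 genes listed as corepressors rose and 2 fell. Those 2 were *RITA1*, described above as carrying RBPJ out of the nucleus, and *TLE5*, so no other gene of that list was called lower. Of 6 coactivators 1 rose, and of 7 genes of receptor cleavage 0 rose and 1 fell.

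On polysomes with CID661578, 2 of the 41 rose and 3 fell, beside 6.34% and 3.93% of all tested genes. The corepressor *CIR1* rose by 0.78 (SE 0.24, adjusted p = 0.0757) and the ubiquitin ligase *NEDD4* by 0.59 (SE 0.207, adjusted p = 0.115) on the log2 scale. The protease *FURIN*, which cuts the receptors during their maturation, changed by −1.09 (SE 0.294, adjusted p = 0.0455), and the acetyltransferases *EP300* and *KAT2A*, coactivators of the nuclear complex, by −0.76 (SE 0.28, adjusted p = 0.136) and −0.47 (SE 0.173, adjusted p = 0.132). All 5 calls were lost without the replicate block (adjusted p from 0.374 to 0.575), with the GC trend removed (0.167 to 0.68) and without replicate 3 (0.18 to 0.47) or 4 (0.173 to 0.546). Without replicate 1 those of *CIR1* (0.158), *NEDD4* (0.315), *EP300* (0.254) and *KAT2A* (0.33) were lost, and without replicate 2 those of *CIR1* (0.157) and *EP300* (0.187). With cercosporamide 6 of 41 rose and 9 fell, beside 17.1% and 16% of all tested genes, and the largest changes were those of *CIR1* (1.41, SE 0.245, adjusted p = 0.000423), *EP300* (−1.38, SE 0.307, adjusted p = 0.00354) and *HES6* (−1.35, SE 0.438, adjusted p = 0.0356), which was −0.75 without replicate 2 (adjusted p = 0.35). With DMSO, 14 of the 41 were higher on polysomes than in total RNA and 7 were lower, beside 29.8% and 29% of all tested genes. They included 6 higher and 2 lower of 13 genes listed as corepressors and 1 higher and 3 lower of 7 genes of receptor cleavage.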

How the data were processed

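PANC1 cells were treated with DMSO, CID661578 or cercosporamide, and total cytosolic and polysome-associated RNA were sequenced as Smart-seq2 libraries. Per the paper's methods, the authors filtered out ribosomal RNA reads and used HISAT2 on hg38, then summarized reads over RefSeq gene models by featureCounts at its defaults. Those defaults ignore strand, and a multi-mapping read adds to every gene it aligns to. The file deposited by the authors holds raw counts, whole numbers for 54583 genes in 24 libraries. Raw reads were not used here. Libraries held 1592459 to 12184749 reads on genes, which limits the precision of genes with few reads.

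The genes and lists were chosen by name, with earlier results of these data known. Only genes with at least 1 read in all libraries were tested, as in the study, which left 12058. Counts were scaled with TMM and tested with edgeR 4.0.16 (glmQLFit and glmQLFTest, R 4.3.3). The TE model held a term for each plate, for each replicate within the polysome fraction and for each compound on polysomes (residual degrees of freedom 6, prior degrees of freedom 18.25). Each fraction was also fitted alone with replicate as a block, as were the 8 DMSO libraries. The study's anota2seq was not used here, but its thresholds were: calls needed a Benjamini-Hochberg adjusted p below 0.15 over all tested genes and, for TE, a change of more than 1.2-fold. The TE model and all fraction fits were tested on simulated data. The simulated counts held no plate or replicate effects, so they cannot check the plate terms or the replicate block. Levels are CPM on the TMM scale, and per kilobase use the canonical GENCODE v44 transcript. Transcript GC content was known for 96.7% of tested genes, and coordinates of the printed sequence come from RefSeq.

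All 10 Notch pathway genes are named. Of the other pathway genes, those named for a change are at most 3 with the largest called TE changes in each direction with cercosporamide, every gene called in total or polysome RNA with a compound where there were at most 5, and otherwise the 3 with the largest change. *DLL3* and *NOTCH4* are named only for their read counts. The 3 genes most like *HES1* were taken by Pearson r. The replicate number joins libraries because the study's methods name it as the batch. As a check, the deviations of each treated library from its group mean were correlated, across genes, with those of its same-numbered DMSO library of that fraction, and 13 of 16 such correlations were above 0.1 (range −0.016 to 0.562). The same-numbered DMSO library gave the highest correlation for 12 of the 16 treated libraries. The exceptions were the polysome libraries of replicates 1 and 4 with each compound. No library was a copy of another. Alternatives were fits without the replicate block or plate terms, with DMSO and 1 compound, with DESeq2 1.42.0, with other scalings, filters and thresholds, with an analysis of partial variance in limma 3.58.1, with the GC trend removed, and without each replicate. A fit without the shallow cercosporamide polysome library was added after seeing the data.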

Additional observations from a re-analysis of the deposited data

Results flagged for a closer look

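*NOTCH3* in the DMSO polysome library of replicate 2 stood far from the other libraries of its group, at 1.89 CPM (23 reads) against 0.0 to 0.189 CPM in the other 3. Its gap to the nearest library was 0.9 of the range of the group, above the critical value of Dixon's test for 4 samples. It was the only such value among 59 groups of 4 libraries of the Notch pathway genes, and chance alone gives such a value in about 1 of 20 groups.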

How the results depend on the processing

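Directions held widely: of the values of single Notch pathway genes under the alternatives, 666 kept their direction and side of the threshold, 57 lost a call, 8 gained one and 15 turned direction, of which *RBPJ* on polysomes with cercosporamide had been called. A further 41 values belong to 3 results whose change rounds to 0.00 and so has no direction (*ADAM10* in total RNA with CID661578, −0.32 to 0.35; *NOTCH2* TE with CID661578, −0.12 to 0.08; *HES1* on polysomes with DMSO, −0.12 to 0.11), none called. Values for which DESeq2 gave no adjusted p were left out. These tallies pool called and uncalled results, and a result that stayed uncalled counts as kept. Of the polysome calls with CID661578, that of *JAG1* was kept in 14 of 14 alternatives, that of *MAML1* in 7 of 14 and that of *ADAM10* in 6 of 14. For the counts of all tested genes called, the replicate block mattered. Without it, calls went from 25 to 21 for TE with CID661578, from 3422 to 3049 for TE with cercosporamide, from 57 to 5 and from 10 to 0 in total RNA with CID661578 and cercosporamide, from 1239 to 71 and from 3989 to 1923 on polysomes, and from 7079 to 5536 for polysome-associated against total RNA with DMSO. Without block and plate terms, TE calls were 9 with CID661578 and 957 with cercosporamide. Among the 8 genes, calls without the replicate block were 3 instead of 4 for TE with cercosporamide (1 without plate terms too) and 1 instead of 3 on polysomes with CID661578. Whether same-numbered libraries share more than the number was not tested beyond the correlations given.

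For TE with CID661578, DESeq2 gave 54 calls, no filter 102, partial variance 41 and the GC correction 13. In total RNA with CID661578, DESeq2 gave 161, DMSO with 1 compound 123, no filter 202, an adjusted p below 0.05 33 and the GC correction 241. In total RNA with cercosporamide these were 396, 1, 145, 3 and 767, with 47 under DESeq2 size factors and 46 without mitochondrial genes in the scaling. On polysomes with CID661578, DMSO with 1 compound gave 2032, an adjusted p below 0.05 360 the GC correction 303 and leaving out the shallow library 1574. An adjusted p below 0.05 left 1957 TE calls and 2296 polysome calls with cercosporamide. Leaving out a replicate gave 12 to 341 and 1816 to 3341 TE calls, 12 to 81 and 1 to 145 in total RNA, 440 to 1063 and 2737 to 3467 on polysomes (CID661578, then cercosporamide) and 6190 to 6968 with DMSO.

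Of the 8 genes, the GC correction called 1 for TE and 1 on polysomes with cercosporamide, and 1 in total RNA and 1 on polysomes with CID661578. On polysomes with CID661578, DMSO with 1 compound called 5, no filter 1 and an adjusted p below 0.05 1. Leaving out a replicate called 2 to 4 for TE with cercosporamide, 1 to 3 and 3 to 6 on polysomes and 5 to 6 with DMSO.

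Other log2 values that turned direction were *JAG2* TE with CID661578 (−0.23 by partial variance, −0.02 to 0.29 without a replicate) and with cercosporamide (0.33 with the GC correction, 0.05 without the shallow library, −0.67 to 0.34 without a replicate). The same held for TE of *RBPJ* with CID661578 (−0.24 with the GC correction, −0.10 to 0.34 without a replicate) and of *MAML1* with cercosporamide (0.20 with the GC correction, −0.30 to 0.09 without a replicate). In total RNA, leaving out a replicate gave −0.30 to 0.06 for *HES1* with CID661578, −0.01 to 0.23 for *HES1* with cercosporamide and −0.39 to 0.38 for *JAG2* with cercosporamide. *RBPJ* on polysomes with cercosporamide, a called value, was −0.02 with the GC correction. The causes were not tested. Depth limits the genes with few reads, such as *NOTCH3* and *HEY1*, which the filter removed.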
